A study of Mus musculus with 9 samples.

Results

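Transcript levels of the proteasome genes were examined in the mouse epithelial line m-ICcl2, of small intestinal origin, before and after exposure to bacterial lipopolysaccharide (LPS). Members were the genes whose symbol begins with Psma, Psmb, Psmc, Psmd, Psme, Psmf or Psmg followed by a number and that had a probe set annotated to them alone. This gave 49 genes with 103 probe sets, of 18193 genes on the array. Of these, 45 reached log2 4 on at least 3 of the 9 arrays and were tested among 9431 genes, and each of the 45 reached it on all 9 arrays. The remaining 4 were Psma8, Psmb8, Psmb9 and Psmb11. The interferon-inducible catalytic subunits Psmb8, Psmb9 and Psmb10 were kept apart, which left 44 tested genes. Psmc3ip and Psme3ip1, which the symbols also take in, are by name proteins that interact with a subunit or activator, and without them 42 genes were left with the same number of calls in each comparison. The only probe set listed for Psme2 is shared with Psme2b, and Psme2 was not analysed here.

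It was derived from fetal gut of C57BL/6 mice and carries the SV40 large T antigen in every condition. The 9 arrays are labelled as 3 biological replicates of each condition. The cells were unstimulated, exposed to E. coli LPS at 100 ng/mL for 6 h, or exposed for 6 h and then kept in LPS-free medium for 90 h, the condition called tolerant. The tolerant cells were thus taken 96 h after the start of LPS, and the labels do not say that the unstimulated cells were cultured for the added time, so the pulse and the added culture time cannot be told apart. All results are for 1 immortalised line.

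The proteasome degrades proteins that carry ubiquitin chains. Its core particle is a stack of rings of alpha and beta subunits, of which Psmb5, Psmb6 and Psmb7 carry the proteolytic sites. A regulatory particle at the end of the core unfolds substrates with a ring of ATPases, the Psmc genes, and binds and trims ubiquitin chains with Psmd subunits. In immune and inflammatory settings Psmb8, Psmb9 and Psmb10 can replace the constitutive catalytic subunits and form the immunoproteasome, and the activator of Psme1 and Psme2 is induced by interferon too. Proteasomes also degrade the I-kappa-B proteins that hold NF-kappa-B back, a step in LPS signalling.

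The arrays were alike in level, with array medians of log2 7.62 to 7.84 over the tested genes. Replicate 1 stood apart in every condition. It was the farthest of the 3 replicates from the condition mean in 34 of the 44 proteasome genes, with a median distance of 0.22 on the log2 scale against 0.12 and 0.13 for replicates 2 and 3. The beta-actin 3′ probe set exceeded the 5′ probe set by log2 0.40 to 0.72 in replicate 1 and by 1.02 to 1.38 in the others. The part of RNA quality in the results was not tested. The fit with a block for the replicate number is given where it changes the call of a proteasome gene described below. With that block Psmb2 at 6 h (−0.5, adjusted p = 0.0494) and Psme3ip1 in tolerant cells (−0.46, adjusted p = 0.0352) were also called lower. For the lists of associated genes it is given mostly as counts. Of the epithelial markers 6 of 9 reached log2 4 on at least 3 arrays, led by Krt8 at 12.72 to 13.51, while Krt19, Cdh1 and Cdx2 stayed below it on all 9. The summed log2 level of the 9 epithelial markers was 55 to 55.9 in unstimulated, 53.2 to 54.7 in 6 h LPS and 63 to 64.2 in tolerant cells. Among 7 leukocyte markers only Cd68, at 4.85 to 9.73, and Csf1r, at 7.97 to 11.2, reached log2 4. The pan-leukocyte gene Ptprc lay at 2.35 to 3.75. The summed level of all 7 was 28.3 to 30.2, 28.1 to 29.7 and 30.1 to 31.6 in the same order. No fibroblast, endothelial or neuroendocrine marker of 6, 3 and 2 reached log2 4. The part of these marker levels in the proteasome results was not tested.

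The mean log2 level of the 42 subunits, activators, inhibitor and chaperones had a median of 10.83. These are probe-set intensities that are not set per transcript length, so levels of different genes are not compared. The tested gene nearest to the level minimum was the core assembly chaperone Psmg4, with a mean of 6.28. The genes left out lay at the array's low end, with Psma8, a testis-type alpha subunit, at a mean of 2.55 and Psmb11, a beta subunit of the thymus, at 2.26.

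After 6 h of LPS no proteasome gene passed the test. The ATPase Psmc6 had the largest measured rise, 2.28-fold, and the inhibitor Psmf1 the largest measured fall, 1.68-fold, each with an adjusted p of 0.115. The test called 0 of 44 genes (limma, Benjamini-Hochberg adjustment over 9431 genes), where it called 0.0636% of all tested genes, 6 in number. At an unadjusted p under 0.05 there were 10 of 44, where 22.9% of all tested genes lay there. The median change was −0.20 on the log2 scale against −0.11 for all tested genes, and 32 of 44 lay below 0, or 72.7% against 59.3%. With the replicate block 8 genes were called, 2 higher and 6 lower, or 18.2% against 24% of all tested genes, of which 11.6% were higher and 12.5% lower. Arrays of the 2 conditions did not overlap for 14 members, 3 higher and 11 lower, or 31.8% against 26.1% of all tested genes, of which 12.9% were higher and 13.2% lower. Without the third 6 h array 3 genes were called, Psmc6 higher and Psmd13 and Psmf1 lower, where 7.38% of all tested genes were.

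In tolerant cells 4 proteasome genes were called higher and 6 lower, together a share near that of all tested genes. Most measured changes lay below 0. The regulatory-particle genes Psmc6, Psmd10 and Psmd8 and the activator Psme4 rose, by 1.67-fold to 2.43-fold. Psmc5, Psmc3, Psmd9, Psmd13, Psmg1 and Psmf1 fell, by 1.55-fold to 2.06-fold. The test against unstimulated cells called 10 of 44 genes, or 22.7%, where it called 26.2% of all tested genes. The 4 that rose stand against 14% of all tested genes, and the 6 that fell against 12.2%. The median change was −0.30 against −0.07 for all tested genes, and 35 of 44 changes lay below 0, or 79.5% against 54.7%. Arrays of the 2 conditions did not overlap for 22 genes, 4 higher and 18 lower, or 50% against 47.1% of all tested genes, of which 22.6% were higher and 24.5% lower.

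The number of calls in tolerant cells depended on the replicate block and on single arrays. With the block 18 genes were called, 4 higher and 14 lower, or 40.9% against 48.6% of all tested genes, of which 22.7% were higher and 25.9% lower. Without the second tolerant array the test called 4 genes, or 9.09% against 14.8% of all tested genes. It called 5, or 11.4%, without the third tolerant array and 5 without the second unstimulated array, against 16.4% and 16.1%. On replicates 2 and 3 alone it was 19, or 43.2% against 38.3%. Psmc3, Psmc5, Psmd8 and Psme4 kept their calls in each of 20 alternative settings.

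Tolerant cells differed from 6 h cells in 2 of 44 genes. Psmd8 rose 2.18-fold and Psmc5 fell 1.82-fold. That is 4.55% of the members, where 13.1% of all tested genes were called, 7.1% higher and 6.02% lower. The median change was −0.09 against 0.01, and 28 of 44 lay below 0, or 63.6% against 49.1%. With the replicate block 7 were called, 2 higher and 5 lower, or 15.9% against 31.7% of all tested genes, 16% higher and 15.7% lower. Arrays did not overlap for 2 higher and 6 lower members, or 18.2% against 31.3% of all tested genes, where 15.9% were higher and 15.4% lower. The count was 1, Psmd8, without the unstimulated replicates 2 or 3, the 6 h replicate 3 or the tolerant replicates 2 or 3. That is 2.27% against 7.18% to 11.5% of all tested genes. All 3 comparisons share arrays with each other, so their values are not independent.

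**Figure D1:**
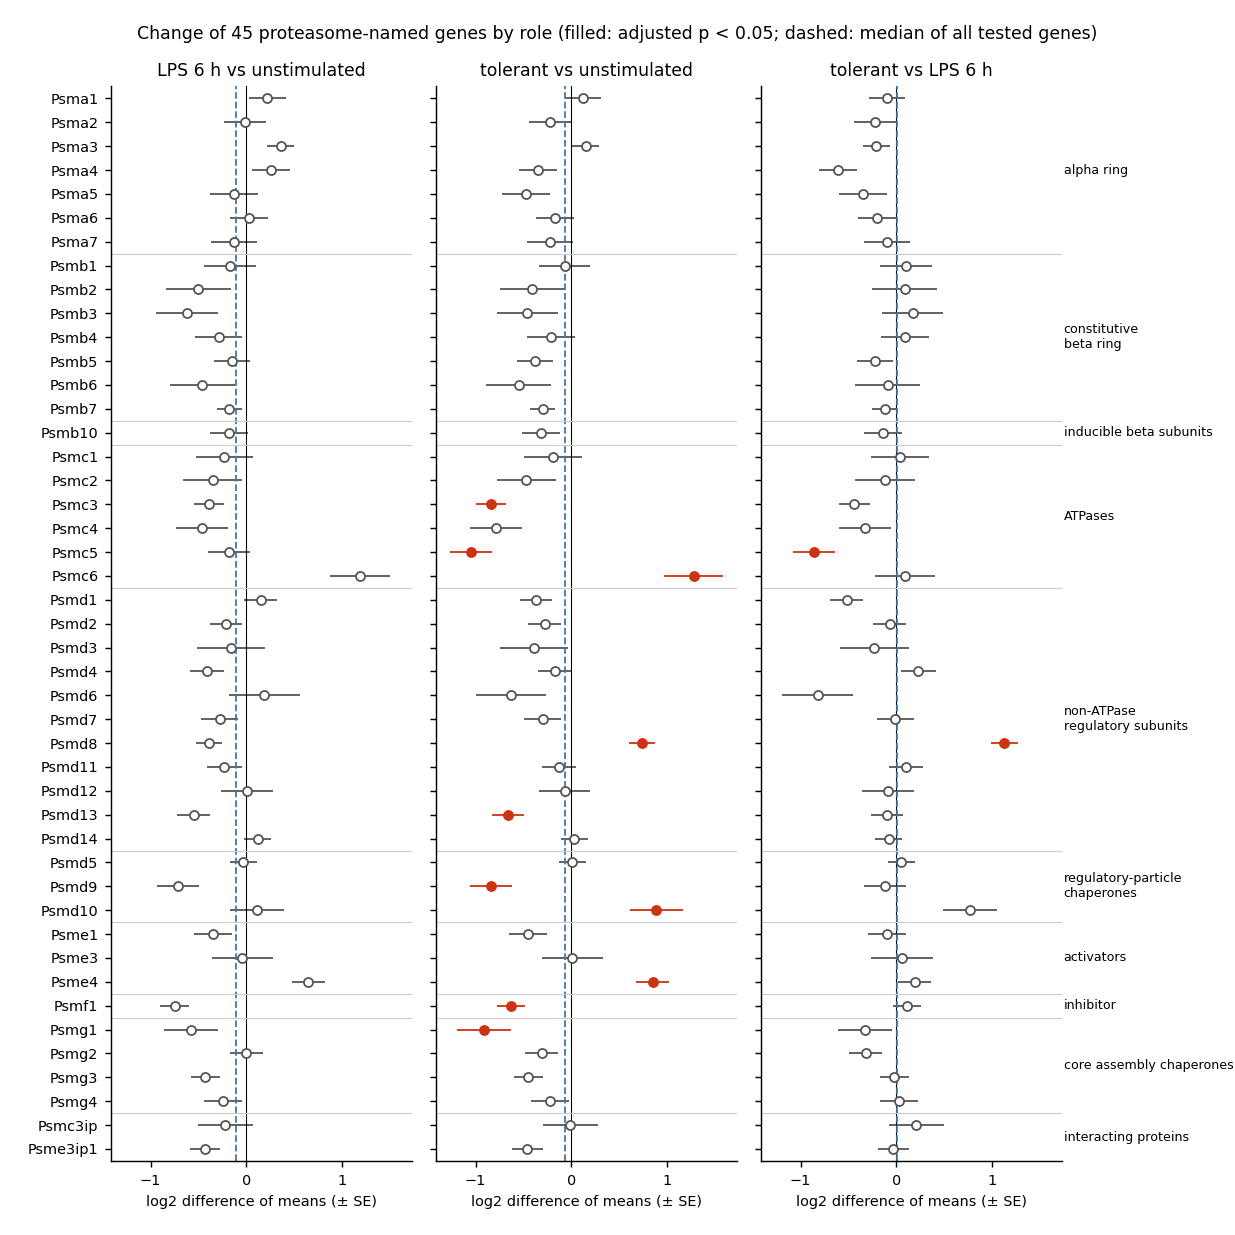
Change in log2 level of each tested proteasome gene, grouped by role, in the comparisons of 6 h LPS with unstimulated, tolerant with unstimulated and tolerant with 6 h LPS cells, with standard errors from the fit over 9 arrays and a dashed line at the median of all tested genes; filled points passed the test. None passed at 6 h, 10 passed in tolerant against unstimulated cells and 2 in tolerant against 6 h cells.

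The ATPase ring held both the largest rise and the largest fall of tolerant against unstimulated cells. Its 6 genes encode the ring that unfolds substrates and threads them into the core. Against unstimulated cells 1 of the 6 rose in tolerant cells, Psmc6, and 2 fell, Psmc5 and Psmc3. Of all tested genes 14% were called higher and 12.2% lower. The changes of the 6 ran from −1.05 to 1.28 with a median of −0.63, against −0.07 for all tested genes. Of the 6, 5 lay below 0, or 83.3% against 54.7%.

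Psmc5 measured 11.06, 10.85 and 10.92 in the unstimulated replicates 1, 2 and 3, then 11.20, 10.45 and 10.64 at 6 h and 10.14, 9.73 and 9.82 in tolerant cells. All 3 tolerant arrays lay below the other 6. Its fall against unstimulated cells was 1.05 on the log2 scale (SE 0.22, adjusted p = 0.00866), and the change from 6 h was −0.86 (SE 0.22, adjusted p = 0.031). The latter call was lost in 8 of 20 alternative settings. Psmc3, whose product reaches into the alpha ring and helps open its gate, gave 11.58, 11.65 and 11.65, then 10.99, 11.27 and 11.43, then 10.80, 10.83 and 10.73. The tolerant arrays again lay below all others, and the 6 h arrays below the unstimulated ones. The change in tolerant cells was −0.84 (SE 0.16, 1.78-fold, adjusted p = 0.00555), and at 6 h it was −0.39 (adjusted p = 0.179). From 6 h to tolerant it was −0.44 (adjusted p = 0.102, or 0.0369 with the replicate block).

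Psmc6 went the other way. It measured 10.12, 9.96 and 10.45 in unstimulated, 11.85, 11.66 and 10.57 in 6 h and 11.57, 11.42 and 11.37 in tolerant cells. Every stimulated array lay above the 3 unstimulated ones, although the third 6 h array did so by little. The rise in tolerant cells was 1.28 (SE 0.31, adjusted p = 0.0168), a call lost in 4 of 20 alternative settings. At 6 h the change was 1.19 (SE 0.31, adjusted p = 0.115, or 0.0337 with the block). Psmc4 gave 12.77, 12.45 and 12.49, then 11.51, 12.40 and 12.43, then 11.50, 11.82 and 12.04. Its tolerant arrays lay below the unstimulated ones, with a change of −0.79 (SE 0.27) that missed the threshold at an adjusted p of 0.06 and passed it at 0.0234 with the block. Psmc1 and Psmc2 changed by −0.19 and −0.47 in tolerant cells, with adjusted p of 0.689 and 0.295.

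Whether Psmc6 stayed high depended on the probe set. At 6 h its 3 probe sets gave 1.19, 1.20 and 1.33. In tolerant cells the brightest, used above, gave 1.28, while the others gave 0.50 and 0.55. From 6 h to tolerant the values were 0.09, −0.70 and −0.78. Averaged over its probe sets Psmc6 did not pass the test in tolerant cells.

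**Figure D2:**
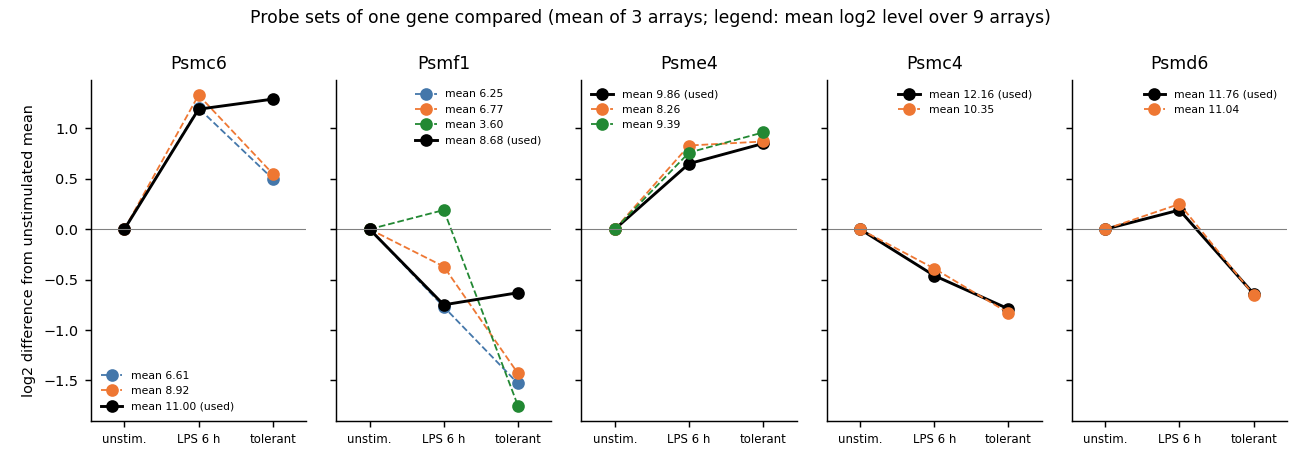
Mean log2 difference from unstimulated cells at 6 h LPS and in tolerant cells for each probe set at the level minimum on 3 or more arrays of Psmc6, Psmf1, Psme4, Psmc4 and Psmd6, with the probe set used drawn in black and the mean level over 9 arrays in the legend. The dimmest Psmf1 probe set, of mean 3.6, lay under log2 4 in tolerant cells. The lines part in tolerant cells for Psmc6 and Psmf1 and run together for Psme4, Psmc4 and Psmd6.

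Of the 11 non-ATPase subunits of the regulatory particle, Psmd8 rose and Psmd13 fell in tolerant cells. Both encode parts of the lid, the subcomplex that holds the deubiquitinase. Psmd8 measured 11.23, 11.23 and 11.07 in unstimulated, 10.72, 10.81 and 10.83 in 6 h and 12.06, 11.85 and 11.82 in tolerant cells. No array of any condition overlapped another condition, with 6 h lowest and tolerant highest. The rise was 0.74 against unstimulated cells (SE 0.14, adjusted p = 0.00659) and 1.13 against 6 h (SE 0.14, adjusted p = 0.00148), and both calls were kept in 20 of 20 alternative settings. At 6 h the change was −0.39 (SE 0.14, adjusted p = 0.159).

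Psmd13 gave 9.81, 9.87 and 9.90, then 9.05, 9.27 and 9.59, then 9.31, 9.09 and 9.21. Stimulated arrays all lay below the unstimulated ones and overlapped each other. The fall in tolerant cells was 0.66 (SE 0.17, 1.58-fold, adjusted p = 0.0223), a call lost in 4 of 20 alternative settings. The 6 h change was −0.55 (adjusted p = 0.128, or 0.0381 with the block).

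The lid's deubiquitinase Psmd14, which removes ubiquitin chains as substrates enter, had overlapping arrays throughout. It measured 10.84, 10.93 and 10.69, then 10.86, 10.97 and 10.97, then 10.88, 10.90 and 10.77. Its changes were 0.12 at 6 h and 0.03 in tolerant cells (SE 0.14 each). The ubiquitin receptor Psmd4 gave 11.58, 11.29 and 11.30, then 11.02, 10.83 and 11.09, then 11.53, 11.11 and 11.01. Its 6 h arrays lay below the unstimulated ones with a change of −0.41 (SE 0.18, adjusted p = 0.227), and the tolerant arrays overlapped both. Psmd6, another lid subunit, changed by −0.63 in tolerant against unstimulated cells and by −0.82 against 6 h. These missed the threshold at adjusted p of 0.238 and 0.191, and with the block they passed at 0.00625 and 0.0031. Psmd1, the scaffold of the base, changed by −0.52 from 6 h to tolerant (adjusted p = 0.075, or 0.0355 with the block). The 11 subunits had a median change of −0.28 in tolerant cells against −0.07 for all tested genes. Of the 11, 9 lay below 0, or 81.8% against 54.7%, and 2 were called, or 18.2% against 26.2%.

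Chaperones that assemble the ATPase ring moved in opposite directions. Psmd10, also known as gankyrin, binds Psmc4 during assembly. It measured 9.90, 10.59 and 10.40 in unstimulated, 9.83, 10.72 and 10.69 in 6 h and 10.92, 11.34 and 11.31 in tolerant cells. The tolerant arrays lay above the other 6. The rise against unstimulated cells was 0.89 (SE 0.28, adjusted p = 0.0478), close to the threshold, and it was lost in 10 of 20 alternative settings, centring each array on its median among them. From 6 h the change was 0.77 (adjusted p = 0.116, or 0.00412 with the block).

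Psmd9, a chaperone of Psmc3 and Psmc6, gave 7.54, 7.45 and 7.03, then 6.63, 6.69 and 6.56, then 6.83, 6.59 and 6.09. Its stimulated arrays lay below all unstimulated ones. The fall in tolerant cells was 0.84 (SE 0.22, 1.79-fold, adjusted p = 0.0229), lost in 6 of 20 settings, and averaged with its other probe sets, which lay under the level minimum, the change was −0.27. At 6 h it was −0.71 (adjusted p = 0.128, or 0.0319 with the block). The remaining chaperone of this kind, Psmd5, changed by −0.03 at 6 h and 0.01 in tolerant cells (SE 0.14 each).

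**Figure D3:**
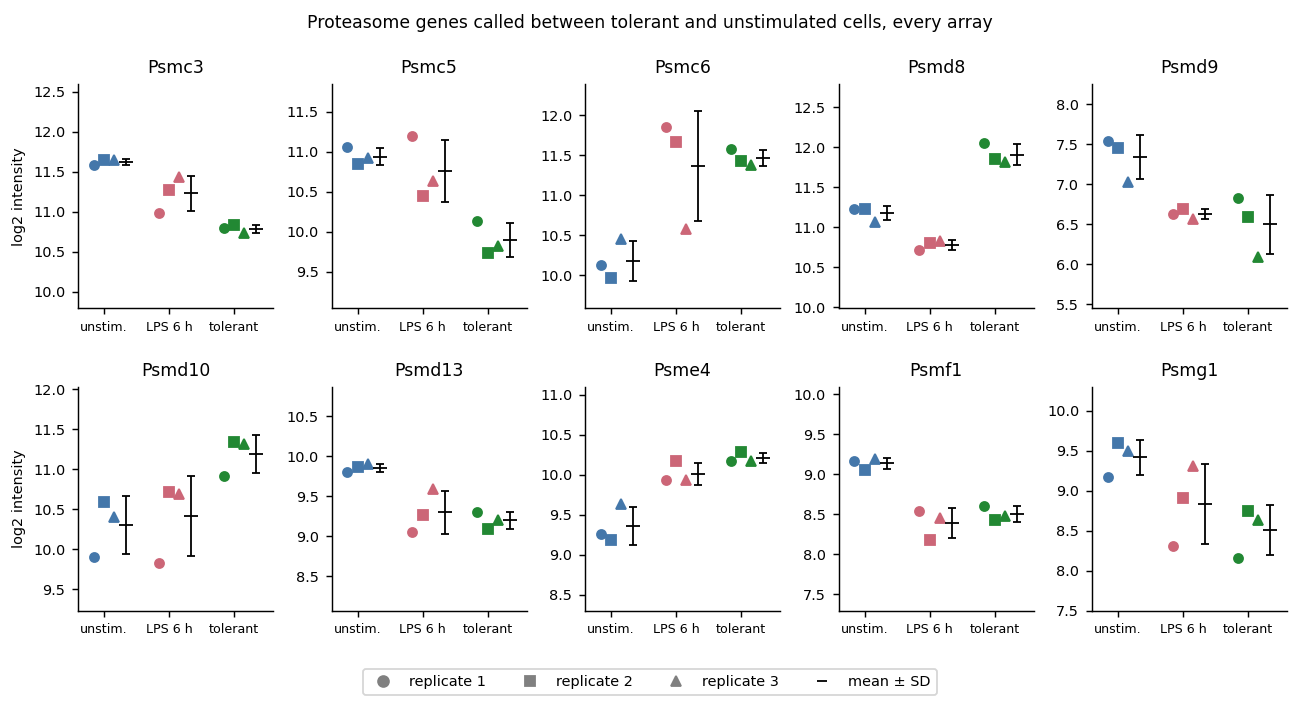
Log2 level on each of the 9 arrays of the 10 proteasome genes called in tolerant against unstimulated cells, with replicate numbers 1 to 3 marked and a bar for the condition mean ± SD; each axis spans the same number of log2 units but starts at its own level. The 3 conditions are all separated for Psmd8, with 6 h lowest and tolerant highest, and for Psmc3, with tolerant lowest and unstimulated highest.

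In the core particle no subunit of the alpha or constitutive beta ring passed the test in any comparison. Of all tested genes 0.0636% passed at 6 h, 26.2% in tolerant against unstimulated and 13.1% in tolerant against 6 h cells. The 7 alpha subunits form the outer rings and the gate. Their median change was 0.03 at 6 h, −0.22 in tolerant against unstimulated cells and −0.21 in tolerant against 6 h cells. All tested genes gave −0.11, −0.07 and 0.01. In the last comparison all 7 lay below 0, against 49.1% of all tested genes. Psma3 had the largest measured rise at 6 h. It gave 12.22, 11.97 and 12.10, then 12.55, 12.47 and 12.35, then 12.29, 12.24 and 12.19. Its 6 h arrays lay above all others, with a change of 0.36 (SE 0.14, adjusted p = 0.18).

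Psma4 measured 11.22, 11.11 and 11.09, then 11.84, 11.17 and 11.20, then 10.83, 10.80 and 10.73. The tolerant arrays lay below the other 6, and the change from 6 h was −0.61 (SE 0.20, adjusted p = 0.0755, or 0.0185 with the block). Psma5 gave 11.35, 11.79 and 11.71, then 11.03, 11.59 and 11.83, then 10.81, 11.24 and 11.37. Tolerant and unstimulated arrays overlapped slightly across replicates, and the change was −0.47 (SE 0.25, adjusted p = 0.2, or 0.0169 with the block).

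All 7 constitutive beta subunits had measured changes below 0 both at 6 h, with a median of −0.29, and in tolerant cells, with a median of −0.38. Of all tested genes 59.3% and 54.7% lay below 0, with medians of −0.11 and −0.07. The catalytic subunit Psmb5, of the chymotrypsin-like site, measured 12.52, 12.38 and 12.11, then 12.49, 12.09 and 11.97, then 12.08, 12 and 11.80. Its tolerant arrays lay just below the unstimulated ones, a change of −0.38 (SE 0.19, adjusted p = 0.183, or 0.0338 with the block). Psmb6, of the caspase-like site, gave 10.03, 10.75 and 10.47, then 9.28, 10.32 and 10.26, then 9.36, 10.14 and 10.10.

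Within each replicate number Psmb6 was lower in stimulated cells, while over all arrays the conditions overlapped. Its changes were −0.46 at 6 h and −0.55 in tolerant cells (SE 0.34 each, adjusted p = 0.443 and 0.273), and with the block the adjusted p was 0.0458 and 0.0124. Psmb7, of the trypsin-like site, measured 11.75, 11.83 and 11.67, then 11.61, 11.61 and 11.50, then 11.48, 11.44 and 11.44. Its conditions did not overlap, but the changes were small, −0.18 at 6 h and −0.30 in tolerant cells (SE 0.13 each, adjusted p = 0.456 and 0.134).

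Psmb3, a beta subunit without a proteolytic site, had the largest change of its ring at 6 h, and it rested on the first array. It gave 11.59, 11.73 and 11.71, then 10.20, 11.39 and 11.57, then 11.11, 11.23 and 11.31. The 6 h change was −0.62 (SE 0.32, adjusted p = 0.275).

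**Figure D4:**
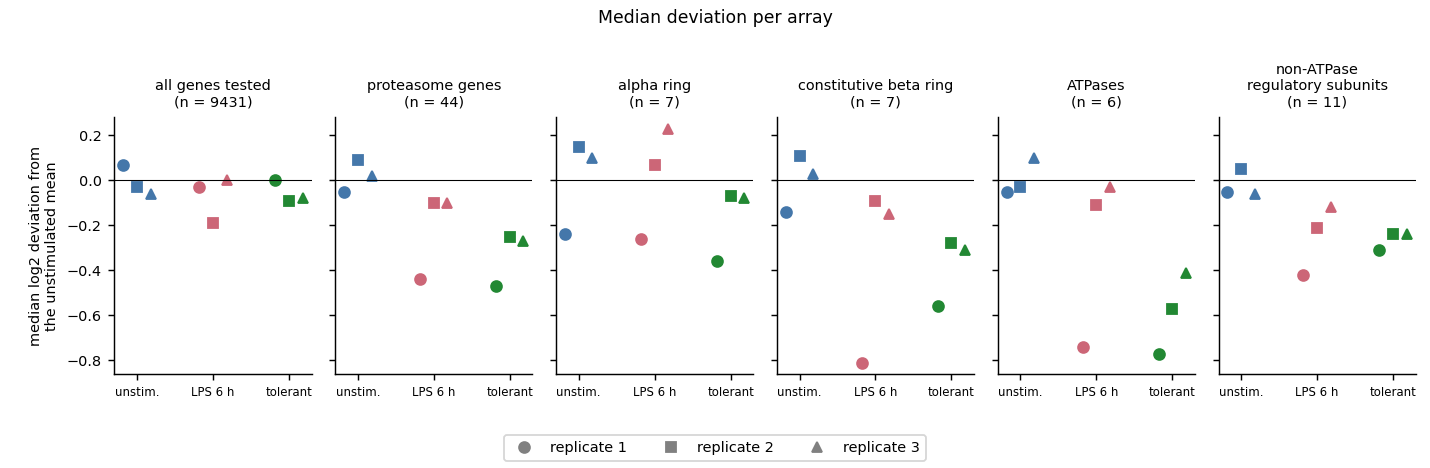
Median over all tested genes, the 44 proteasome genes and 4 of their role groups of the log2 difference from the unstimulated mean on each of the 9 arrays. The proteasome medians of the 3 tolerant arrays lie between −0.47 and −0.25, and the first 6 h array, at −0.44, lies below the other 6 h arrays at −0.10.

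The size of the shift differed by replicate. The 44 genes had array medians of −0.05, 0.09 and 0.02 in unstimulated, −0.44, −0.10 and −0.10 in 6 h and −0.47, −0.25 and −0.27 in tolerant cells, each as the difference from the unstimulated mean. All tested genes gave 0.07, −0.03 and −0.06, then −0.03, −0.19 and 0, then 0, −0.09 and −0.08. The 3 tolerant arrays thus lay below the 3 unstimulated ones for the proteasome genes. At 6 h the first array lay farthest from the unstimulated range. The ATPase genes had the lowest tolerant medians of the 4 larger roles, −0.77, −0.57 and −0.41.

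No rise of the inducible catalytic subunits was measured. Psmb8, which takes the place of Psmb5, had probe sets at log2 2.2 to 2.22 and 3.12 to 3.54 over the 9 arrays. Psmb9, which replaces Psmb6, lay at 2.23 to 2.33. Both were below the level minimum on every array, where differences carry no order, so that an increase under that level would not have been seen.

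Psmb10, which replaces Psmb7, was well measured. It gave 7.44, 7.71 and 7.35 in unstimulated, 6.96, 7.36 and 7.64 in 6 h and 7.16, 7.22 and 7.16 in tolerant cells. The 6 h arrays overlapped both other conditions, and the tolerant arrays lay slightly below the unstimulated ones. Its changes were −0.18 at 6 h, −0.32 in tolerant cells and −0.14 between them (SE 0.20 each, adjusted p = 0.617, 0.273 and 0.712), and it passed the test in none of the settings tried. Relative to Psmb7 on the same array, Psmb10 changed by 0.00, −0.02 and −0.02 in the same comparisons. The two-sided exact permutation p was 1, 0.9 and 0.9 (adjusted p = 1 over 3 comparisons), where 3 arrays against 3 cannot go below 0.1.

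**Figure D5:**
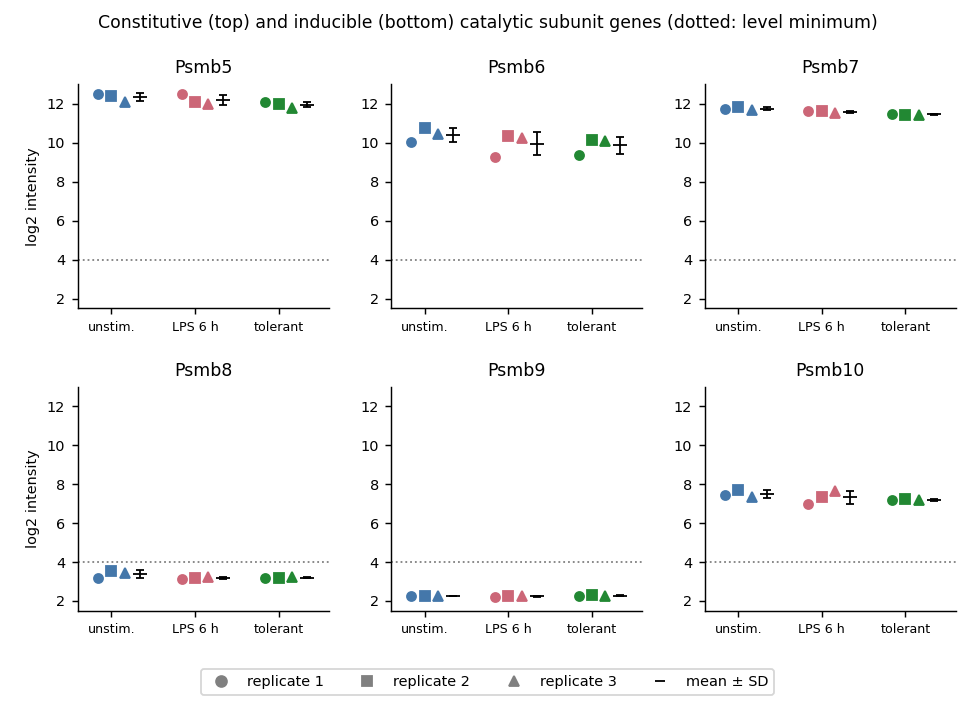
Log2 level on each of the 9 arrays of the constitutive catalytic subunits Psmb5, Psmb6 and Psmb7 and of the inducible subunits Psmb8, Psmb9 and Psmb10, with mean ± SD and the level minimum of log2 4 as a dotted line. Psmb8 and Psmb9 lie under the line on all arrays and Psmb10 between 6.96 and 7.71; levels of different genes are not comparable.

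Among the genes that bind the ends of the core, the activator Psme4 rose and the inhibitor Psmf1 fell. Psme4 encodes a large, mostly nuclear activator that acts without ubiquitin or ATP. It measured 9.26, 9.18 and 9.63 in unstimulated, 9.93, 10.17 and 9.93 in 6 h and 10.17, 10.28 and 10.17 in tolerant cells. All stimulated arrays lay above the unstimulated ones. The rise in tolerant cells was 0.85 (SE 0.17, 1.80-fold, adjusted p = 0.00719), and the 6 h change was 0.65 (adjusted p = 0.115, or 0.0331 with the block). Its 3 probe sets above the level minimum gave 0.85, 0.87 and 0.96 in tolerant cells and 0.65, 0.83 and 0.76 at 6 h, and its others, with means of 2.73 to 3.22, lay under it.

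Psmf1, which inhibits the core particle in vitro, gave 9.17, 9.06 and 9.19, then 8.54, 8.18 and 8.45, then 8.61, 8.43 and 8.48. The stimulated arrays lay below the unstimulated ones and overlapped each other. The fall in tolerant cells was 0.63 (SE 0.15, 1.55-fold, adjusted p = 0.0163) and was lost without the second or the third tolerant array. The 6 h change was −0.75 (adjusted p = 0.115, or 0.0297 with the block). A pair of dimmer probe sets gave changes of −1.53 and −1.43 in tolerant cells, and of −0.76 and −1.06 from 6 h where the probe set used gave 0.11. The dimmest had a tolerant mean of 2.37, under the level minimum, and gives no size.

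Psme1, the interferon-inducible activator subunit, passed the test in no comparison. It measured 11.20, 10.92 and 10.92, then 11.03, 10.33 and 10.62, then 10.73, 10.49 and 10.47. The tolerant arrays lay below the unstimulated ones, with a change of −0.45 (SE 0.20, adjusted p = 0.137, or 0.0241 with the block). Psme3, the nuclear activator of the same family, had overlapping arrays, with 8.91, 8.41 and 8.39, then 9.27, 8.0 and 8.31, then 8.89, 8.44 and 8.43. Its changes were −0.04 and 0.01 (SE 0.32 each).

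All 4 chaperones of core assembly had measured changes below 0 in tolerant cells, against 54.7% of all tested genes. The median of the 4 was −0.38 against −0.07, and 1 passed the test, or 25% against 26.2%. Psmg1 pairs with Psmg2 to build the alpha ring. It gave 9.17, 9.60 and 9.5, then 8.31, 8.91 and 9.31, then 8.16, 8.75 and 8.63. The tolerant arrays lay below the unstimulated ones, and the 6 h arrays overlapped both. The fall was 0.91 (SE 0.28, 1.88-fold, adjusted p = 0.039), lost in 8 of 20 alternative settings, and the 6 h change was −0.58 (adjusted p = 0.246, or 0.0381 with the block). Its partner Psmg2 changed by −0.31 (adjusted p = 0.223). Psmg3 and Psmg4, the other pair of core assembly chaperones, changed by −0.45 and −0.22 (adjusted p = 0.0603 and 0.472, and 0.0292 with the block for Psmg3).

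Promoter sequence was looked at because Nfe2l1 and Nfe2l2, factors known to act on proteasome genes, bind antioxidant response elements. RefSeq promoter entries (GRCm38.p6) matched 38 of the 45 tested genes, and the 250 bases before each start were searched on both strands. The element core TGACNNNGC was present in 5 of 38, or 13.2%, against 11.5% of 27025 genes. The 5 windows are shown with the core in capitals, which in Psmc6 and Psmd12 lies on the opposite strand, each 5′ to 3′ along the gene.

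Psmb5, chr14:54618019-54618057, minus strand: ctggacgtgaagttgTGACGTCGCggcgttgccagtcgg

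Psmb6, chr11:70525333-70525356, plus strand: gcggactaaagagagTGACGGAGC

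Psmc6, chr14:45329582-45329620, plus strand: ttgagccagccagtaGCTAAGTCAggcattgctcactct

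Psmd12, chr11:107479278-107479304, plus strand: tctGCTGTGTCAcatttgcccccctca

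Psmd9, chr5:123228144-123228182, plus strand: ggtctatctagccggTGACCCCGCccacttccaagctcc

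Of these 5 genes Psmc6 was called higher and Psmd9 lower in tolerant against unstimulated cells. Psmb5, Psmb6 and Psmd12 were not called in that comparison. With the replicate block Psmb5 and Psmb6 were called lower in it and Psmd12 was not called. The part of the match in these changes was not tested. The core began 47 bases before the start in Psmb5, 31 in Psmd9 and 9 in Psmb6, and 227 and 247 bases before it in Psmc6 and Psmd12. Other motifs were the GC box GGGCGG, in 21 of 38 or 55.3% against 35.4% of all genes, the CCAAT box, in 14 or 36.8% against 37.5%, and the interferon-stimulated response element core, a pair of GAAA blocks with 2 bases between, in 3 or 7.89% against 3.46%. All genes here means every gene with a promoter entry, tested or not, so the shares are not set against tested genes alone. The promoters of Psmd8 and Psmc5 are shown because these genes were called in both comparisons of tolerant cells, in opposite directions. Both hold a GC box, in capitals, 59 bases before the start in Psmd8 and 107 in Psmc5, where it lies on the opposite strand.

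Psmd8, chr7:29180674-29180823, minus strand: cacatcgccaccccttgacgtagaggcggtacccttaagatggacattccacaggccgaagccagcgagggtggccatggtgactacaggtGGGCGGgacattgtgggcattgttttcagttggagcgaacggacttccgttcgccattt

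Psmc5, chr11:106256035-106256184, plus strand: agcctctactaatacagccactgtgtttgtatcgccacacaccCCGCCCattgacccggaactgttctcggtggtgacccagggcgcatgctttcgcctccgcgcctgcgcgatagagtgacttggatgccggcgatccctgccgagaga

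Genes that work with the proteasome were read from a list of subunits without a Psm symbol, regulators, ubiquitin shuttles, deubiquitinases and segregase cofactors, of which 22 of the 23 on the array were tested. At 6 h none was called, where 0.0636% of all tested genes were, and the median change was 0.21 against −0.11. With the replicate block 2 of the 22 were higher and 0 lower, against 11.6% and 12.5% of all tested genes. In tolerant cells 1 rose and 1 fell, against 14% and 12.2%, and the median was 0.27 against −0.07. With the block 7 were higher and 3 lower, against 22.7% and 25.9%. The deubiquitinase Uchl5, which binds the regulatory particle, rose by 0.79 (adjusted p = 0.0308), from 8.43, 9.02 and 8.95 to 9.39, 9.81 and 9.56. Its call was lost in 8 of 20 settings. Ngly1, the peptide N-glycanase that processes Nfe2l1, fell by 0.60 (adjusted p = 0.0225), a call lost in 5 of 20 settings. No gene of the list was called without the second or the third tolerant array, where 14.8% and 16.4% of all tested genes were.

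From 6 h to tolerant Ngly1 showed its larger difference. It measured 8.56, 8.42 and 8.68 in unstimulated, 9.57, 9.38 and 9.17 in 6 h and 7.93, 8.0 and 7.91 in tolerant cells, with 6 h highest and no overlap. The fall from 6 h was 1.43 (adjusted p = 0.000696). In that comparison the stress-inducible Zfand2a rose by 1.13 (adjusted p = 0.0477) and the segregase cofactor Ufd1 fell by 0.54 (adjusted p = 0.0479), calls lost in 10 and 11 of 20 alternative settings. These 1 higher and 2 lower genes stand against 7.1% and 6.02% of all tested genes, and the median was 0.05 against 0.01. With the block 3 genes were higher and 4 lower, against 16% and 15.7%. Nfe2l1 itself changed by 0.49 and 0.28 against unstimulated cells at 6 h and in tolerant cells (adjusted p = 0.545 and 0.706, and 0.037 at 6 h with the block). Nfe2l2 changed by 0.27 and 0.35 (adjusted p = 0.277 and 0.0939, and 0.0435 in tolerant cells with the block). Its stimulated arrays all lay above the unstimulated ones. Pomp, the maturation factor of the core, changed by 0.20 and 0.02 (adjusted p = 0.636 and 0.959).

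Antigen-processing genes, which use the peptides that proteasomes make, were tested for 10 of the 13 on the array. The peptide transporter genes Tap1 and Tap2 and the regulator Nlrc5 did not reach the level minimum on 3 arrays. None of the 10 was called at 6 h or between 6 h and tolerant cells, where 0.0636% and 13.1% of all tested genes were. With the block 4 were higher and 0 lower at 6 h, against 11.6% and 12.5% of all tested genes, and 2 were higher and 4 lower between 6 h and tolerant, against 16% and 15.7%. The median changes were 0.00 at 6 h, 0.07 in tolerant cells and −0.06 between them, against −0.11, −0.07 and 0.01 for all tested genes. In tolerant cells Erap1, an aminopeptidase of the endoplasmic reticulum that trims peptides, rose by 1.41 (adjusted p = 0.0035), from 5.19, 4.39 and 5.19 to 6.18, 6.33 and 6.5. Lap3, a cytosolic leucine aminopeptidase, fell by 0.73 (adjusted p = 0.00635), from 9.53, 9.53 and 9.54 to 8.79, 8.89 and 8.72. The 1 rise and 1 fall stand against 14% and 12.2% of all tested genes, and with the block 3 were higher and 2 lower, against 22.7% and 25.9%.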

How the data were processed

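The authors deposited 1 linear intensity per probe set and array. Per the submitters' processing notes it came from GCRMA (version: not given in the sources used here). This method subtracts background and normalizes between arrays, so values below about log2 4 crowd at a floor. Here log2 was taken with nothing added. Of 45101 probe sets 34945 carried 1 gene symbol in the platform annotation, and 64 controls, 932 with several symbols and 9160 unlisted were left out. Each gene took its probe set with the highest mean, and the 51.8% of genes that reached log2 4 on 3 or more arrays were tested. For 2 of the 20 members with several probe sets above the minimum, Psmc6 and Psmf1, these differed by over 1.5-fold in a change.

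Groups came from the labels. The model was limma 3.58.1 in R 4.3.3, with a mean per condition over 9 arrays, 6 residual degrees of freedom, eBayes with no trend, and its two-sided test, with Benjamini-Hochberg adjustment over 9431 genes at 0.05. The labels number the replicates 1, 2 and 3 in each condition without saying what a number shares. Same-numbered arrays deviated together (correlation across genes 0.157 to 0.844 over 9 pairs), which met the rule for pairing of over 0.1 in every pair, while differently numbered arrays gave −0.743 to 0.731 over 18. In pairs without replicate 1, same-numbered arrays gave 0.157 to 0.677 and differently numbered ones 0.214 to 0.731, ranges that overlap. Deviations were taken from condition means that include replicate 1, so a replicate 1 that stands apart makes replicates 2 and 3 correlate. The correlations thus set replicate 1 apart and cannot decide whether replicates 2 and 3 are paired by number.

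Members, lists and tests were chosen with earlier results of these data known, so lists are described by counts and medians beside those of all genes. Genes named with every array's value are those called in a comparison, the largest change in each role and comparison, the catalytic and inducible subunits, the activators, Psmf1, Psmd4 and Psmd14. Psmd1, Psmd5, Psmd6, Psmc1, Psmc2, Psmc4, Psmg2 to Psmg4 and Nfe2l2 were added after their values were seen. Promoter sequences are from RefSeq (GRCm38.p6).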

Additional observations from a re-analysis of the deposited data

How the results depend on the processing

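The precision is limited by 3 arrays per condition, by replicate 1 standing apart, and by the floor of the signal, under which Psmb8 and Psmb9 lay. Over the named genes, 304 alternative values of called results stayed called, 76 were no longer past the threshold and 0 changed sign. Of the uncalled results, 70 alternative values passed the threshold with the same sign. Psmf1 in tolerant against 6 h cells turned and passed the threshold, at −0.91 (adjusted p = 0.0102), as the mean over all its probe sets. The dimmest of these lay under the level minimum in tolerant cells. Other uncalled values changed sign without passing it, 37 values of 17 results. The cause of the other changes was not tested.

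Proteasome genes called at 6 h numbered 8 with the replicate block, or 18.2% against 24% of all tested genes. With a block of replicate 1 against the others they numbered 12, or 27.3% against 29.1%. With each array left out in turn they numbered 0 to 3, at most 6.82% against 7.38%. In tolerant against unstimulated cells they numbered 18 and 20 with these blocks, or 40.9% against 48.6% and 45.5% against 51%. On replicates 2 and 3 only they numbered 19, or 43.2% against 38.3%. With an array left out they numbered 4 to 13, from 9.09% against 14.8% to 29.5% against 30.8%. In tolerant against 6 h cells they numbered 7 in each of these 3 settings, or 15.9% against 31.7%, 33.8% and 22.5%. Without a filter the count was 1, or 2.17% against 5.71%. With an array left out it was 1 to 2, or 2.27% to 4.55% against 7.18% to 13.6%. It was 5 with the mean over all probe sets and 1 in a fit on the 6 arrays compared. The share of all genes in these last 2 fits is not given here.

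The median change at 6 h was −0.14 with the mean over probe sets and on replicates 2 and 3, and −0.30 to −0.11 with an array left out. In tolerant against unstimulated cells it was −0.34 to −0.24 with an array left out. In tolerant against 6 h cells it was −0.14 with arrays centred on their medians and −0.16 to −0.02 with an array left out. It lay below 0 in all of these.

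Of the 22 proteasome-associated genes 2 were called at 6 h with either block, where 24% and 29.1% of all tested genes were. With an array left out 0 to 2 were called, where 0.053% to 7.38% of all tested genes were. In tolerant against unstimulated cells 10 of the 22 were called with the replicate block, 11 with the replicate 1 block and 7 on replicates 2 and 3. Of all tested genes 48.6%, 51% and 38.3% were called in these settings. With an array left out 0 to 4 of the 22 were called, against 14.8% to 30.8% of all tested genes. With centring 1 was called, against 26.4%. The count was 1 with quantile normalization and 4 with the mean over probe sets or on 6 arrays. Against 6 h 7 were called with either block, against 31.7% and 33.8% of all tested genes, and 5 on replicates 2 and 3, against 22.5%. With an array left out 1 to 3 were called, against 7.18% to 13.6%, and on 6 arrays the count was 1. Of the 10 antigen-processing genes 4 and 3 were called at 6 h with the replicate and replicate 1 blocks, against 24% and 29.1%. In tolerant against unstimulated cells they were 5 and 4, against 48.6% and 51%, and 4 on replicates 2 and 3, against 38.3%. Against 6 h they were 6 with either block, against 31.7% and 33.8%, and 3 on replicates 2 and 3, against 22.5%. They were 1 without a filter, against 5.71%, and 2 with centring, against 14.1%. With the mean over probe sets or quantile normalization they were 2. The share of all genes is not given here for the mean over probe sets, quantile normalization or 6 arrays.

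The change of Psmb10 relative to Psmb7 with an array left out was −0.19 to 0.20 at 6 h, −0.05 to 0.05 in tolerant against unstimulated cells, and −0.22 to 0.17 between tolerant and 6 h cells. The count without Psmc3ip and Psme3ip1 was chosen after seeing the data.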
